A study of Mus musculus with 8 samples.

Results

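The dicarboxylate and citrate transporters considered here are 5 genes, Slc13a2, Slc13a3, Slc13a5, Slc25a1 and Slc25a10, found by gene symbol among the 16122 genes of the deposited mouse liver count table. They were picked on these data, because Slc13a2 and Slc13a3 moved in opposite directions between the 2 groups of livers. Their levels and fold changes between those groups are therefore given as a description, with no p-value, and nothing is read from calls made on them. All 5 had enough reads to pass the filter for low counts that left 12351 genes.

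The libraries were made from total RNA of frozen livers of male mice of the inbred strain C57BL/6J. The genotype is WT in every sample, and there are 4 libraries with the treatment NASH and 4 with the treatment WT. NASH stands for nonalcoholic steatohepatitis, a fatty and inflamed liver. The mice were 8 weeks old when bought, and they were then kept for 28 weeks on normal food or on food high in fat, cholesterol and fructose. The labels do not say which group ate which diet, so reading NASH as the rich diet is an interpretation, and they do not say whether the libraries come from separate animals. A diet model differs from human disease in its course, and whole liver mixes all of its cell types.

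Of the SLC13 family, Slc13a2, Slc13a3 and Slc13a5 encode carriers that take negatively charged citric acid cycle intermediates across the plasma membrane together with sodium ions. The sodium pump maintains the gradient of these ions. Slc13a2 encodes NaDC1, a low-affinity carrier of succinate, citrate and other dicarboxylates that is best known from the apical membrane of kidney tubule and gut cells. Slc13a3 encodes NaDC3, a high-affinity carrier of succinate, glutarate and N-acetylaspartate that is known from kidney, brain and liver. Slc13a5 encodes NaCT, also called mINDY, which takes citrate from the blood into hepatocytes. Slc25a1 and Slc25a10 belong to the carrier family of the inner mitochondrial membrane. Slc25a1 encodes the citrate carrier, which exports citrate for fatty acid and sterol synthesis, and Slc25a10 encodes the dicarboxylate carrier, which exchanges malate or succinate for phosphate and other anions.

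Counts per library summed to between 25760117 and 32684719. NASH replicates 1 and 4 had totals that differ by 1 count, 26270597 and 26270596, but they are not the same data, with 3769 and 2225 counts of Slc25a1. All 9 hepatocyte markers found in the table were detected in every library, Ahsg with only 599 (NASH) and 480 (WT) counts in total. Their summed level was 57736 to 114413 CPM (counts divided by a library size that was adjusted by the trimmed mean of M-values, TMM) in NASH and 148656 to 180652 in WT. Most of that sum was Alb, albumin, and the other 8 markers summed to 26043 to 34771 CPM in NASH and 33091 to 36430 in WT, with ranges that overlap. Among them Hpx, hemopexin, rose by 1.55 ± 0.39 on the log2 scale (edgeR adjusted p = 0.0246), and Serpina1c fell by 1.34 ± 0.37 (adjusted p = 0.0346). Both calls needed NASH replicate 4 and each WT library, and that of Serpina1c also NASH replicate 2. Macrophage markers summed to 330 to 1319 CPM in NASH and 93.3 to 353 in WT, and markers of stellate cells and fibroblasts to 518 to 1125 and 326 to 455. In bulk tissue, fewer cells of a type and less RNA per cell cannot be told apart.

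The 3 plasma membrane transporters differed between the groups in opposite directions, and the 2 mitochondrial carriers overlapped. Slc13a2 was lower in NASH, while Slc13a3 and Slc13a5 were higher. By edgeR at an adjusted p under 0.05, 2 of the 5 genes were called higher in NASH and 1 lower, where 12.9% of all tested genes were called higher and 6.00% lower. Every NASH library lay above every WT library for 2 of the 5, as for 14.6% of tested genes, and below every WT library for 1 of the 5, as for 12.2%. Slc13a5 was called in 8 of the 14 alternative settings, and Slc13a2 and Slc13a3 in all 14, but these settings refit the same libraries. The genes were chosen by this same contrast, so nothing is read from any of these counts.

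**Figure D1:**
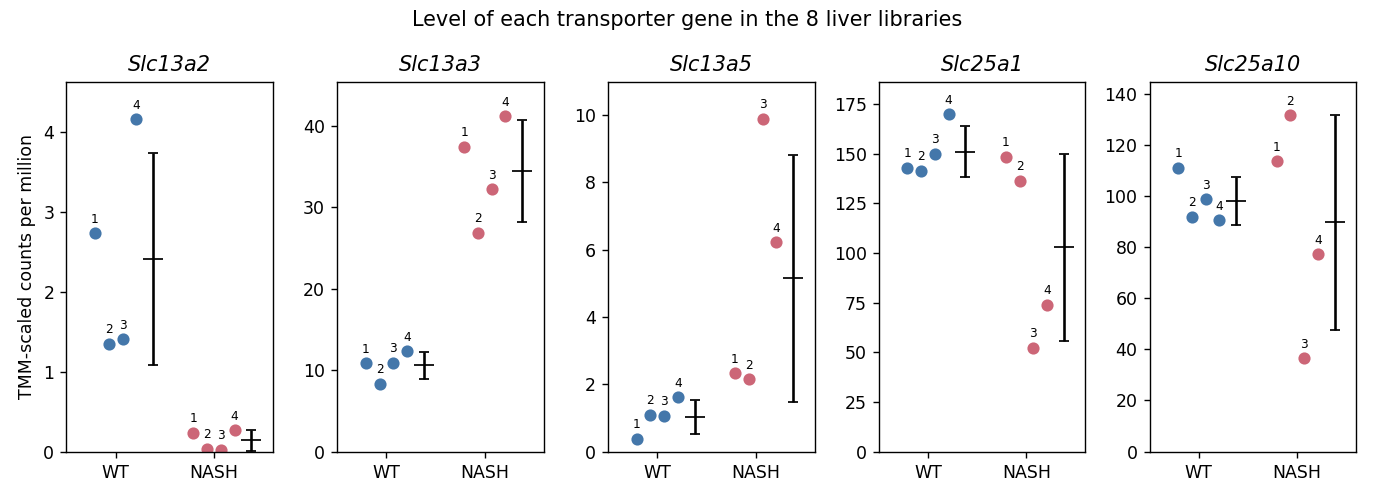
TMM-scaled CPM of each of the 5 genes in the 4 WT (blue) and 4 NASH (red) libraries, numbered by replicate, with the group mean and SD (n = 4) as a black bar beside the points; each panel has its own vertical axis from 0. Slc13a2 is near 0 in every NASH library, Slc13a3 and Slc13a5 lie higher in every NASH library than in any WT library, and NASH replicates 3 and 4 are the lowest for Slc25a1 and Slc25a10.

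Slc13a2 (ENSMUSG00000001095) was almost undetected in the NASH libraries. The gene lies on the minus strand of chromosome 11 at 78397087 to 78422217 (GRCm38, GENCODE M21). It had 6, 1, 1 and 8 counts in NASH replicates 1 to 4, against 65, 37, 41 and 119 in WT replicates 1 to 4. Every NASH library was below every WT library, and WT replicate 4 was the highest. The group means were 0.141 ± 0.128 CPM in NASH and 2.41 ± 1.33 CPM in WT (SD, n = 4), which is 17.1-fold higher in WT. The log2 fold change was -4.10 ± 0.73 (SE), and it ranked 10 from the lowest among the 12351 tested genes. It ranged from -4.66 to -3.70 when each library was left out in turn.

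Because Slc13a2 is best known from kidney and gut, markers of those organs were counted in the same libraries. Of 8 listed markers of kidney proximal tubule, 3 were in the table. Slc34a1 and Slc22a8, transporters that define the tubule, had 0 counts over the 4 WT libraries, which allows up to 3 counts, and 1 and 3 counts over the NASH libraries. Lrp2, an endocytic receptor also used as a tubule marker, had 350 counts in WT and 88 in NASH, and it fell by 2.04 ± 0.54 on the log2 scale (edgeR adjusted p = 0.0307). Leaving out NASH replicate 3 or 4 or WT replicate 1, 3 or 4 ended that call. The kidney marker sum was 0.366 to 1.30 CPM in NASH and 1.68 to 4.62 CPM in WT, and in WT all of it was Lrp2. It was lower in the group with less Slc13a2. Within WT it was 1.68, 1.75, 4.62 and 4.44 CPM in replicates 1 to 4, beside 65, 37, 41 and 119 counts of Slc13a2. Within NASH it was lowest in replicate 4, with 8 counts of Slc13a2, and highest in replicate 2, with 1 count. So few counts hardly order the NASH libraries. The part of kidney RNA in the difference was not tested. Of the 6 enterocyte markers in the table, Alpi had 0 counts over the WT libraries, Cdx2 and Lct had 1 each and Vil1 had 22. The other 2 were Fabp2 (a fatty acid binding protein) and Apoa4 (an apolipoprotein that mouse liver also makes). They had 7798 and 36585 counts in WT and 12367 and 339439 in NASH. The part of gut RNA in the level of Slc13a2 was not tested either.

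Slc13a3 (ENSMUSG00000018459) was about as steady among NASH libraries as among WT libraries and stood well above them. It lies on the minus strand of chromosome 2 at 165405028 to 165473230. It had 951, 727, 1272 and 1241 counts in NASH replicates 1 to 4 and 258, 229, 319 and 352 in WT replicates 1 to 4. The lowest NASH library, at 26.9 CPM, was above the highest WT library, at 12.3 CPM. The means were 34.5 ± 6.24 CPM in NASH and 10.6 ± 1.65 CPM in WT (SD, n = 4), or 3.25-fold higher in NASH, and the log2 fold change was 1.70 ± 0.17 (SE). Leaving out each library gave 1.59 to 1.78. The coefficient of variation (SD over mean) was 18.1% in NASH and 15.6% in WT, the smallest NASH value among the 5 genes.

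Slc13a5 (ENSMUSG00000020805) was higher in NASH on average, with a wide spread. It lies on the minus strand of chromosome 11 at 72241989 to 72267222. It had 59, 58, 390 and 187 counts in NASH replicates 1 to 4 and 9, 30, 31 and 46 in WT replicates 1 to 4. The groups did not overlap, but NASH replicates 1 and 2, at 2.32 and 2.15 CPM, lay much nearer to the highest WT library, at 1.61 CPM, than to NASH replicate 3, at 9.89 CPM. The means were 5.14 ± 3.68 CPM in NASH and 1.04 ± 0.505 CPM in WT (SD, n = 4), and the log2 fold change was 2.31 ± 0.59 (SE). It was 1.76 without NASH replicate 3.

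The 2 NASH libraries with most Slc13a5, replicates 3 and 4, also had the higher sums of several, but not all, lists of markers of other cell types. Macrophage markers summed to 330, 358, 1319 and 783 CPM in NASH replicates 1 to 4, and cholangiocyte (bile duct cell) markers to 107, 253, 755 and 413 CPM. Markers of stellate cells and fibroblasts summed to 518, 797, 878 and 1125 CPM, and those of neutrophils to 2.40, 2.85, 68.3 and 20.1 CPM. B and plasma cell markers summed to 8.00, 4.33, 19.7 and 8.77 CPM. Other lists had another order. Endothelial markers summed to 232, 278, 275 and 457 CPM, and T and NK cell markers, highest in replicate 1, to 6.58, 3.52, 4.52 and 2.46 CPM. The hepatocyte sum was lowest in NASH replicate 3, at 57736 CPM, and highest of the NASH libraries in replicate 4, at 114413 CPM. The part of these cell types in the level of Slc13a5 was not tested.

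The make-up of the SLC13 group can be read within each library, where the scaling between libraries cancels. In the WT group there were 1158 counts of Slc13a3 to 262 of Slc13a2, a ratio of 4.42 (95% exact counting interval 3.86 to 5.07). In the NASH group there were 4191 to 16, a ratio of 262 (161 to 459). These intervals cover counting error only. In single libraries the ratio was 2.96 to 7.78 in WT. It was 155 (78.5 to 360) in NASH replicate 4 and 158.5 (72.6 to 433) in replicate 1, and in replicates 2 and 3 it was 727 (130 to 28754) and 1272 (228 to 50280), each against 1 count of Slc13a2.

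To compare genes with each other, CPM was divided by the length of the gene's merged exons. The summed level of the 3 genes was 2.38 to 4.41 CPM per kb in WT and 5.61 to 9.28 in NASH. Slc13a3 made up 53.5 to 72.4% of it in WT and 75.5 to 92.7% in NASH. Slc13a2 made up 20.1 to 39.1% in WT and 0.128 to 1.26% in NASH. Slc13a5 made up 2.33 to 9.30% in WT and 6.07 to 24.4% in NASH, with the highest share in NASH replicate 3. Slc13a2 was the second most abundant of the 3 in each WT library and the least abundant in each NASH library.

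**Figure D2:**
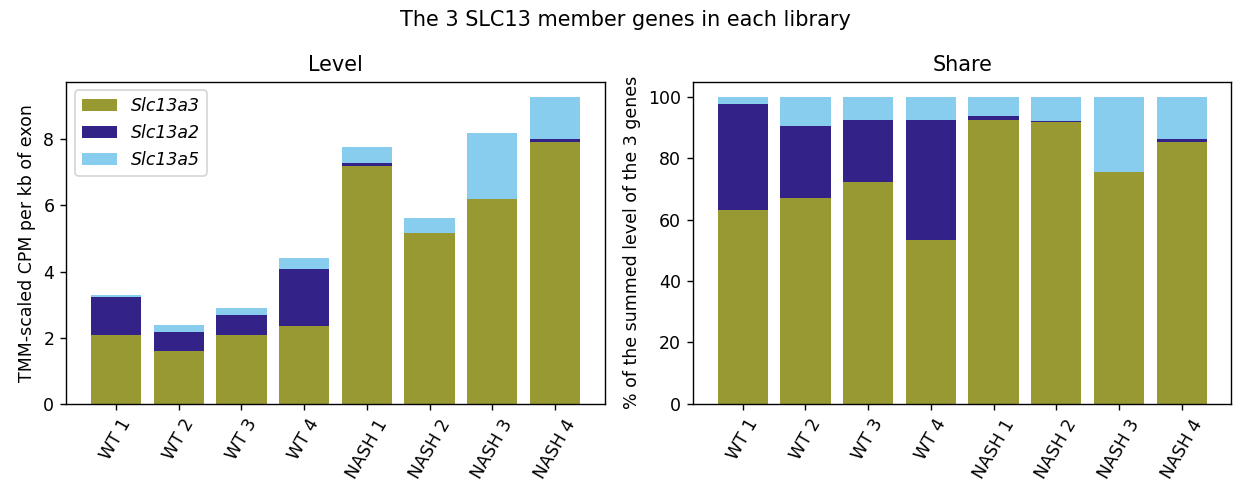
Left, level per kb of exon (TMM-scaled CPM per kb) of Slc13a3, Slc13a2 and Slc13a5, stacked, in each of the 8 libraries; right, each gene's percentage of that sum. Slc13a3 is the largest part everywhere, and the Slc13a2 part, 20.1 to 39.1% in WT, is 0.128 to 1.26% in NASH.

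Over all 5 genes, the order of mean levels per kb in WT was Slc25a1 (69.8 ± 6.03 CPM per kb, SD, n = 4), Slc25a10 (28.4 ± 2.71), Slc13a3 (2.04 ± 0.32), Slc13a2 (1.00 ± 0.55) and Slc13a5 (0.210 ± 0.102). In NASH it was Slc25a1 (47.5 ± 21.7), Slc25a10 (26.0 ± 12.2), Slc13a3 (6.61 ± 1.20), Slc13a5 (1.04 ± 0.75) and Slc13a2 (0.0585 ± 0.0529). The ranges over libraries of Slc13a3 and Slc13a2 overlapped in WT, and those of Slc25a1 and Slc25a10 overlapped in NASH, although in each library the first of each pair was the higher. The other neighbours did not overlap. Slc13a2 was above 27.9% of the tested genes in WT and above 0.545% in NASH, while Slc13a3 was above 40.5% and 67.1%. Slc25a1 was above 95.2% in WT and 94.0% in NASH. The order was the same with the length of the longest coding transcript, a setting chosen after seeing the data.

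The only other SLC13 gene in the table, Slc13a4, which encodes a sulfate carrier, was low in both groups. It had 54 counts over the NASH and 61 over the WT libraries, or 0.454 ± 0.372 and 0.556 ± 0.0783 CPM. Its log2 fold change was -0.30 ± 0.57 (edgeR adjusted p = 0.732), and it was 0.04 with library totals alone.

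The DNA just before the start of the 3 SLC13 genes is shown because they moved in opposite directions. The 250 bases before the annotated start were taken from RefSeq (GRCm38.p6), which had all 5 genes and 2 starts for Slc13a5. They were searched on both strands for 7 motifs chosen after seeing the data: TATAA (core of the TATA box), CCAAT (the element bound by NF-Y), GGGCGG (an Sp factor site), CACGTG (an E-box), TGACG (core of the CRE, the site of CREB factors), GTTAA (core of the HNF1 site) and AGGTCA (core of many nuclear receptor sites). Capitals mark every match, including reverse complements and overlaps. All 4 windows are on the minus strand and are written 5′ to 3′, for Slc13a2 at chr11:78422235-78422484, for Slc13a3 at chr2:165473198-165473447, and for Slc13a5 at chr11:72267162-72267411 (first start) and chr11:72266605-72266854 (second start).
Slc13a2: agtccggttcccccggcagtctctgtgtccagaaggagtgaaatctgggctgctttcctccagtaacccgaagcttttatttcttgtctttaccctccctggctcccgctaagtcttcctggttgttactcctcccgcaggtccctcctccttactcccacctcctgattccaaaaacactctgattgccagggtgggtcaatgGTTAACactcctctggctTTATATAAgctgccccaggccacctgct
Slc13a3: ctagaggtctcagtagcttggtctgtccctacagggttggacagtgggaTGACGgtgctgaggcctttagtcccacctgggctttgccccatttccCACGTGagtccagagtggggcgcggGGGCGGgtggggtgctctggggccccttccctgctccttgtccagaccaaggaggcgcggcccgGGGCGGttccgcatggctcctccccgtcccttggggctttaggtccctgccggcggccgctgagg
Slc13a5 first start: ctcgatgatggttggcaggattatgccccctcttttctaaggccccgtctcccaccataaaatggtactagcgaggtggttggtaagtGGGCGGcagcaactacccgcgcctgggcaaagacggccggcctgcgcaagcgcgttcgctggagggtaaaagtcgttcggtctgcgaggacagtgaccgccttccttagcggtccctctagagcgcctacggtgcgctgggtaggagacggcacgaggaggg
Slc13a5 second start: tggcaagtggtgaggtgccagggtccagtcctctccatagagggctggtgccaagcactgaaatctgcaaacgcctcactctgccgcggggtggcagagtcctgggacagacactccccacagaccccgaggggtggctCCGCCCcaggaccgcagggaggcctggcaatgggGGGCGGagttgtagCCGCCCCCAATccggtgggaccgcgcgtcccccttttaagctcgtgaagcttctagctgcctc

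The Slc13a2 window held TATAA at position -25, counted from the annotated start, overlapping its own reverse complement, and GTTAA at -46, which together with its reverse complement forms the palindrome GTTAAC. Of the 32851 windows in the table, 22.8% held TATAA and 21.7% held GTTAA on either strand, and none of the windows of the other 4 genes did. GGGCGG was in the windows of Slc13a3, Slc13a5 (both starts) and Slc25a1 and in 32.7% of all windows, but not in those of Slc13a2 and Slc25a10. CACGTG, found in 6.02% of windows, was in those of Slc13a3 and Slc25a1. TGACG (17.8%) was in that of Slc13a3 alone, CCAAT (33.8%) in those of Slc13a5 (second start) and Slc25a1, and AGGTCA (14.0%) in none of the 6. The G and C content was 53.6% for Slc13a2, 67.6% for Slc13a3, 61.6% and 65.6% for Slc13a5, 70.0% for Slc25a1 and 56.0% for Slc25a10. A match is a description of letters and does not show that a factor binds.

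The mitochondrial citrate carrier gene Slc25a1 (ENSMUSG00000003528) was lower on average in NASH, with groups that overlapped. It lies on the minus strand of chromosome 16 at 17925223 to 17928219. It was at 148, 136, 52.4 and 73.9 CPM in NASH replicates 1 to 4 and at 143, 142, 150 and 170 CPM in WT replicates 1 to 4. NASH replicate 1 lay among the WT libraries and replicate 2 just below them, while replicates 3 and 4 were far below. The means were 103 ± 46.9 and 151 ± 13.04 CPM (SD, n = 4), with a log2 fold change of -0.56 ± 0.30 (SE).

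The dicarboxylate carrier gene Slc25a10 (ENSMUSG00000025792) had nearly equal group means and the same low libraries. It lies on the plus strand of chromosome 11 at 120491840 to 120499187. It was at 114, 131, 36.6 and 77.1 CPM in NASH replicates 1 to 4 and at 111, 91.8, 98.7 and 90.6 CPM in WT replicates 1 to 4. NASH replicates 1 and 2 were above all WT libraries, and replicates 3 and 4 were below all of them. The means were 89.7 ± 42.0 and 98.0 ± 9.37 CPM (SD, n = 4). The log2 fold change of -0.13 ± 0.33 (SE) had no stable sign, at 0.12 without NASH replicate 3 and 0.16 with library totals alone.

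The spread of both carriers was larger in NASH than in WT. The coefficient of variation was 45.6% in NASH and 8.63% in WT for Slc25a1, and 46.9% and 9.56% for Slc25a10. This was not particular to the carriers. Sdha was at 429 ± 198 CPM in NASH and 603 ± 21.8 in WT, and Mdh1 at 372 ± 181 and 564 ± 33.2 (SD, n = 4). It did not hold for every gene, since the SD of Acly was 45.8 CPM in NASH and 120 in WT. Slc25a1 and Slc25a10 varied together more closely than any other pair of the 5. The root mean square difference of their log2 CPM, each centred on its own mean over the 8 libraries, was 0.29. The next closest pair, Slc13a3 and Slc13a5, both higher in NASH, was at 0.86. The median distance to all tested genes was 0.64 from Slc25a1 and 0.62 from Slc25a10. Genes outside the 5 lay closer to each, such as Sdha to Slc25a1 (0.068) and Spp2 to Slc25a10 (0.11). With each gene centred within its group, Slc25a1 and Slc25a10 were at 0.22. The next closest pair was then Slc13a3 and Slc25a1, at 0.51, while Slc13a3 and Slc13a5 were at 0.83. The ratio of Slc25a1 to Slc25a10 per kb was 2.06 to 2.99 in WT and 1.53 to 2.29 in NASH. NASH replicate 3, the lowest library for both genes, also had the lowest hepatocyte marker sum, but replicate 4, the next lowest, had the highest of the NASH libraries, and the part of cell make-up was not tested.

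**Figure D3:**
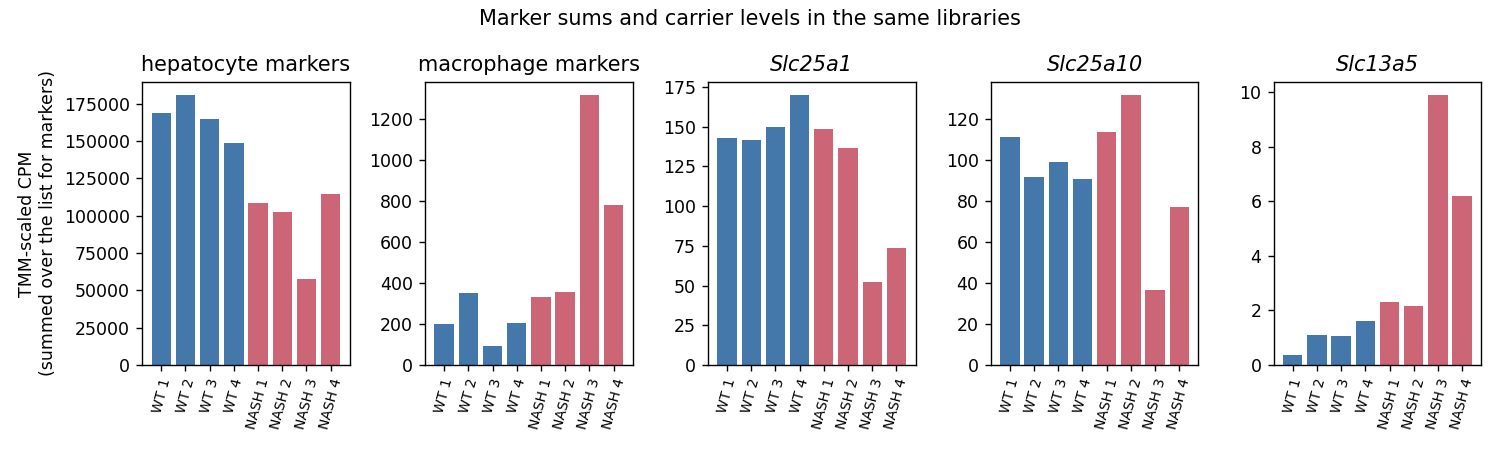
TMM-scaled CPM in each library, WT in blue and NASH in red, summed over the marker list for hepatocytes and macrophages and for single genes in the other panels; each panel has its own vertical axis from 0. NASH replicates 3 and 4 have the most macrophage marker RNA (1319 and 783 CPM), the most Slc13a5 and the least Slc25a1 and Slc25a10.

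Within the mitochondrial carrier family, Slc25a1 and Slc25a10 were among the more abundant members. By level per kb, Slc25a1 ranked 5 of 43 tested SLC25 genes in WT and 7 in NASH, and Slc25a10 ranked 13 and 9. Of the other 41, edgeR called 4 higher and 5 lower in NASH, beside 12.9% higher and 6.00% lower of all tested genes. Their median log2 fold change was -0.27, where the median over all tested genes was 0.01. With the pyruvate carriers Mpc1 and Mpc2 included, DESeq2 called 17 of 43 and limma-voom 8. With library totals alone, which moved the median of all genes to 0.37, the split was 7 higher and 1 lower and the list median 0.03.

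The 4 carriers that rose included a pair of uncoupling proteins. Ucp2 was at 63.4 CPM in NASH and 17.2 CPM in WT, with a log2 fold change of 1.88 ± 0.29 (adjusted p = 0.00691), which held with each library left out. Ucp3 had 71 counts over the NASH libraries and 0 over the WT libraries, which makes it at least 21.2-fold higher when the WT group is set to a floor of 3 counts. Slc25a24, an ATP-magnesium and phosphate carrier, rose by 2.54 ± 0.51 (adjusted p = 0.0134), a call lost with limma-voom. Slc25a4, an ADP and ATP exchanger, rose by 1.65 ± 0.36 (adjusted p = 0.0159), a call lost without WT replicate 1.

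The 5 carriers that fell were Slc25a32, Slc25a33, Slc25a34, Slc25a44 and Slc25a47, named after their values were seen. Their log2 fold changes lay between -0.97 (Slc25a34) and -0.47 (Slc25a44), with edgeR adjusted p from 0.0193 to 0.0364. Slc25a47, known from liver mitochondria, was the most abundant, at 251 ± 64.2 CPM in NASH and 423 ± 50.7 CPM in WT. All 5 calls were lost without WT replicate 1, and with library totals alone all but that of Slc25a32 were lost. Further single libraries whose removal ended a call were NASH replicate 4 (Slc25a32, Slc25a44, Slc25a47), WT replicate 2 (all but Slc25a34), WT replicate 3 (all but Slc25a32) and WT replicate 4 (Slc25a32, Slc25a44, Slc25a47).

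Most enzymes that make and use the carried acids did not pass the test, and the direction of the citric acid cycle list depended on the scaling. Of 19 citric acid cycle enzymes, edgeR called 0, although 3 had an unadjusted p under 0.05, DESeq2 called 2 and limma-voom 0, and 3 were called higher with library totals alone. Their median log2 fold change was -0.27, and 14 of the 19 values were negative, but with library totals alone the median was 0.04. Among them were Fh1, fumarase, at -0.80 ± 0.31 (adjusted p = 0.0937), and Idh2, mitochondrial isocitrate dehydrogenase, at 0.60 ± 0.21 (adjusted p = 0.0702). Those 2 were chosen after their values were seen, as the lowest and the highest value of the list.

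Of 11 cytosolic enzymes of citrate and malate, 1 fell and none rose, where 6.00% of all tested genes fell and 12.9% rose. In the list, 2 had an unadjusted p under 0.05, and DESeq2 and limma-voom called 1 each. Acly, ATP citrate lyase, which splits exported citrate into acetyl-CoA, was at 147 ± 45.8 CPM in NASH and 373 ± 120 CPM in WT (SD, n = 4). Its log2 fold change was -1.34 ± 0.29 (edgeR adjusted p = 0.0157). No single library was needed for the call, but it was lost with the replicate number as a block. The list median was -0.60, and 10 of the 11 values were negative. The next enzymes of fatty acid synthesis, Acaca and Fasn, were at -0.02 ± 0.17 (adjusted p = 0.946) and 0.13 ± 0.43 (adjusted p = 0.843), named after their values were seen.

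Receptors and enzymes for succinate and itaconate gave 0 calls by edgeR among 3 tested, with 1 unadjusted p under 0.05 and 1 call each by DESeq2 and limma-voom. Sucnr1, the receptor for succinate outside the cell, was at 16.6 ± 13.5 CPM in NASH and 44.7 ± 2.45 CPM in WT, with a log2 fold change of -1.44 ± 0.53 (adjusted p = 0.0836). Irg1, also named Acod1, which makes itaconate, was at 0.80 ± 0.67 (adjusted p = 0.408). Clybl, which breaks down a product of itaconate, was at -0.32 ± 0.24 (adjusted p = 0.357).

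Enzymes of N-acetylaspartate, a substrate of NaDC3, gave 0 calls by edgeR among 3 tested, with 1 unadjusted p under 0.05 and 0 calls of these 3 by DESeq2 or limma-voom. Aspa, which splits N-acetylaspartate, was at -0.65 ± 0.34 (adjusted p = 0.200). Naalad2, a peptidase of N-acetylaspartylglutamate, was at 1.01 ± 0.42 (adjusted p = 0.121), and Acy3, an aminoacylase, at -0.39 ± 0.35 (adjusted p = 0.439). Folh1, another such peptidase, which was below the low-count filter and is named after its values were seen, had 81 counts over the NASH and 3 over the WT libraries (DESeq2 adjusted p = 0.000593). The list of organic anion exchangers also held other anion transporters. Its 5 tested genes were Slc22a7, Slc26a1, Slc4a4, Slc16a1 and Slc16a7. Slc22a6 was not in the table, and Slc22a8 and Slc26a6 were below the low-count filter. There were 0 calls by edgeR among the 5, with 0 unadjusted p under 0.05 and 0 calls by DESeq2 and limma-voom. Library totals alone gave 1 call.

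Transcription factors that have been tied to these transporters moved both ways. Of 14 tested, edgeR called 2 higher and 3 lower, and the list median was -0.44. Of all tested genes, 12.9% were called higher and 6.00% lower. In the list, 10 had an unadjusted p under 0.05, and DESeq2 called 8 and limma-voom 5. Srebf1, a factor for lipid synthesis genes, rose from 40.9 ± 1.82 CPM in WT to 93.3 ± 19.1 CPM in NASH, a log2 fold change of 1.19 ± 0.14 (edgeR adjusted p = 0.00349). Pparg, a nuclear receptor of fat storage, rose by 1.28 ± 0.27 (adjusted p = 0.0147). Both calls held with each library left out. Nr1i3, the xenobiotic receptor CAR, fell by 1.11 ± 0.28 on the log2 scale (adjusted p = 0.0259), and Ppara, a nuclear receptor of fatty acid oxidation, fell by 0.93 ± 0.26 (adjusted p = 0.0350). Creb3l3, a liver factor of fasting metabolism named after its value was seen, fell by 0.57 ± 0.16 (adjusted p = 0.0341). Leaving out NASH replicate 4 ended the calls of all 3, as did leaving out the first or the third WT replicate. Those of Nr1i3 and Ppara were also lost without WT replicate 2, and those of Ppara and Creb3l3 without WT replicate 4.

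Genes of the response to fasting and glucagon, which is known to raise Slc13a5 in rodent hepatocytes, gave 0 higher and 3 lower calls among 12 tested. Of all tested genes, 12.9% were called higher and 6.00% lower. The list median log2 fold change was -0.72. In the list, 5 had an unadjusted p under 0.05, and DESeq2 called 5 and limma-voom 2. Tat, tyrosine aminotransferase, fell by 1.67 ± 0.38 on the log2 scale (edgeR adjusted p = 0.0186), a call that needed both NASH replicate 4 and WT replicate 1. Angptl4, a lipase inhibitor, fell by 0.99 ± 0.24 (adjusted p = 0.0236), a call that needed NASH replicate 4 and WT replicates 1, 3 and 4. G6pc, glucose-6-phosphatase, fell by 1.42 ± 0.43 (adjusted p = 0.0492), a call that needed NASH replicate 4 and each of the WT libraries, and that limma-voom did not make.

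**Figure D4:**
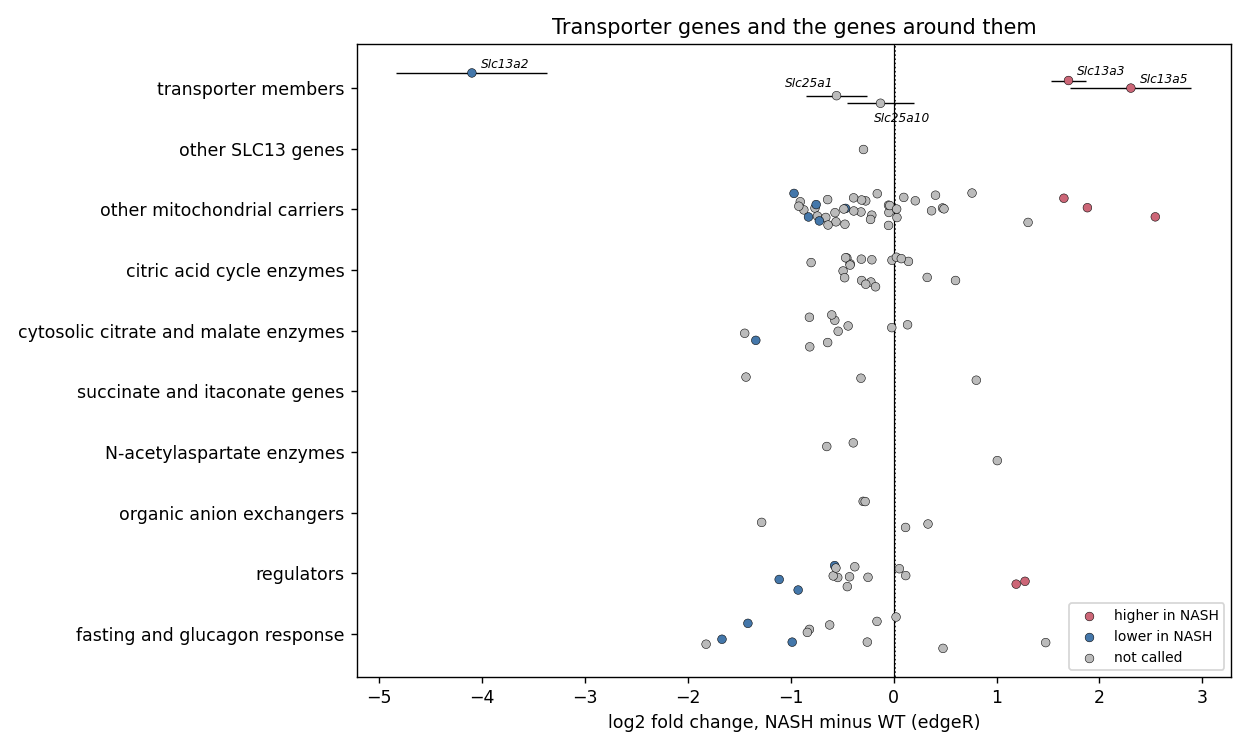
Log2 fold change, NASH minus WT, of the 5 transporter genes (bars are SE) and of the tested genes of 9 lists around them, by edgeR (the other mitochondrial carriers include the pyruvate carriers Mpc1 and Mpc2); red and blue points passed an adjusted p of 0.05, grey points did not, the dotted line is the median of all tested genes, vertical scatter within a list has no meaning, and Ucp3, with 0 counts in WT, is not drawn. Slc13a2, at -4.10, lies left of every other point. The 5 transporter genes are coloured by the same rule, but they were chosen by this contrast, so nothing is read from their colours.

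Zones of the liver lobule were compared as well. Of 12 genes of hepatocytes around the central vein, 1 fell and none rose, with a median log2 fold change of -0.64. Of 12 genes of hepatocytes around the portal vein, 1 rose and 1 fell, with a median of -0.83. By the same test 12.9% of all tested genes rose and 6.00% fell. Cyp1a2, a cytochrome P450 of the central zone, fell by 2.43 ± 0.69 on the log2 scale (edgeR adjusted p = 0.0381), a call that held only without NASH replicate 1 among the 8 libraries left out in turn. Of the portal genes, Etnppl fell by 1.97 ± 0.58 (adjusted p = 0.0431) and Aldh1b1 rose by 0.93 ± 0.25 (adjusted p = 0.0328). The call of Etnppl was lost without NASH replicate 2 or 4 or any 1 of the WT libraries, and that of Aldh1b1 without NASH replicate 2 or 4 or WT replicate 1, 2 or 3.

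Genes with the most similar profile were found by the root mean square difference of centred log2 CPM over the 8 libraries. For Slc13a2 the closest were Lrtm1 (0.71), Serpina1e (0.81), Gm3839 (1.02), Gm826 (1.09) and Lama3 (1.15), where the median distance to all tested genes was 2.37. Serpina1e belongs to a family of near-identical genes and its counts are less certain. For Slc13a3 the closest included Samd9l (0.20), Tead4 (0.22), Nipa1 (0.23) and Itgb7 (0.27), with a median over all genes of 0.94.

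For Slc13a5 the closest were Ipcef1 (0.33), Cdh3 (0.38) and Tyrobp (0.38), the last an adaptor protein of myeloid cells. For Slc25a1 they were Sdha (0.068), Mdh1 (0.084) and Atp5sl (0.087), and for Slc25a10 Spp2 (0.11), Pctp (0.13) and Hadh (0.14). The median distances to all tested genes were 1.41 for Slc13a5, 0.64 for Slc25a1 and 0.62 for Slc25a10. These distances are descriptions, and the libraries shared a group difference that makes any 2 genes moving the same way look alike. With each gene centred within its group, the genes kept were 1 of 5 for Slc13a2 (Serpina1e), 0 of 5 for Slc13a3, 1 of 3 for Slc13a5 (Ipcef1), 1 of 3 for Slc25a1 (Sdha) and 2 of 3 for Slc25a10 (Spp2 and Pctp).

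Reads of the 5 genes can hardly be mistaken for one another, since the longest identical stretch between their longest coding transcripts was 11 to 17 bases. Genes on the opposite strand overlap some of their exons. Slc13a2os covers 632 of the 2412 exon bases of Slc13a2, 1700051A21Rik covers 473 of the 4940 of Slc13a5, and Gm11788 covers 228 of the 3455 of Slc25a10. The strand setting of the counting is not given in the sources used here, so reads of these partners may be included in the counts.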

How the data were processed

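Bulk RNA sequencing of liver gave 8 libraries, 4 with the treatment NASH and 4 with the treatment WT. Per the labels' protocols, Trizol was used for extraction and an Illumina TruSeq stranded kit for total RNA for the libraries. The submitters' processing notes name HISAT2 for alignment and HTSeq 0.9.1 for counting, and list builds mm9 and mm10 without a role. The values used are raw counts of reads for each gene, deposited by the authors under that heading. Its columns named Control were taken as the WT samples. The authors' normalized values in the same table were not used.

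Groups were compared with edgeR 4.0.16 (R 4.3.3), by TMM scaling, its default low-count filter and robust quasi-likelihood F-tests, two-sided. P-values were adjusted by Benjamini-Hochberg over 12351 genes at a threshold of 0.05, and all adjusted p are from this test unless another tool is named. Since the labels name no animals, p-values reflect variation among the libraries, some of which may be technical. The biological coefficient of variation was 29.2%. Library totals of 25760117 to 32684719 counts set the precision. CPM uses TMM scaling. Levels per kb divide CPM by merged exon length in GENCODE M21 (GRCm38), which may differ from the annotation counted.

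The members and the gene lists were chosen with earlier results of these data known. The 23 lists hold 246 entries, of which 222 are in the table. Some results that the naming rule selects are not reported here. Named genes are the 5 members, up to 4 passing genes per pathway list by size of change (2 per zonation list), all genes of very short lists, and 5 or 3 nearest profiles per member. The 14 alternatives were other scaling, no low-count filter, a replicate block, each library left out, limma-voom (limma 3.58.1) and DESeq2 1.42.0. Markers of other cell types among the lists were endothelial cells (232 to 457 CPM in NASH, 177 to 330 in WT), B and plasma cells (4.33 to 19.7 and 6.72 to 8.35), T and NK cells (2.46 to 6.58 and 2.62 to 5.27), neutrophils (2.40 to 68.3 and 0.856 to 3.61) and pancreatic acinar cells (1 of 7 in the table, 3.90 to 4.55 and 6.52 to 12.0). The enterocyte sum (1619 to 3676 and 352 to 478) was mostly Apoa4, which mouse liver also makes.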

Additional observations from a re-analysis of the deposited data

How the results depend on the processing

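Slc13a2 stayed lower and Slc13a3 and Slc13a5 higher in NASH under all 14 alternatives, and Slc25a1 stayed lower on average. Slc25a10 had no stable sign. Genes called over the table numbered 2338, against 618 with the replicate block, 3550 with DESeq2 and 821 to 3742 with 1 library left out. Pathway genes called numbered 19, against 5 with the block, 37 with DESeq2 and 8 to 42 with 1 library left out. With the block, the called pathway genes were Ucp2, Slc25a32, Srebf1, Pparg and Tat. The block removed 3 degrees of freedom, and the labels do not say what a replicate number marks. Same-numbered samples correlated at -0.12 to 0.03 in their deviations from the group means. With library totals alone the median of all genes moved to 0.37, the share of calls that were higher from 68.3% to 93.3%, and the log2 fold change of Slc13a3 to 2.06. Under that setting Slc13a4 changed sign, to 0.0438. The cause of these shifts was not tested. Depth limits Slc13a2 in NASH, with 16 counts over 4 libraries.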
